A study of Mus musculus with 10 samples.

Results

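The genes described here take up, store, export and sense iron or build heme, the iron-containing cofactor of the respiratory chain and of myoglobin. They are Tfrc, Slc11a2, Fth1, Ftl1, Slc40a1, Aco1, Ireb2, Alas1, Cpox and Fech, chosen by name from what their products do. Earlier results of these data were known when they were chosen. All 10 were found among the 23337 genes of the authors' deposited table, and all 10 have a fold change and an adjusted p-value there.

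The cells were cardiomyocytes, the muscle cells of the heart, sorted from wild-type mice. The labels name no chamber. In 5 libraries the mice had received AAV9-cTNT-GFP, a virus that drives green fluorescent protein from the troponin T promoter of heart muscle, so that expression is aimed at these cells. In the other 5 libraries the virus was AAV9-cTNT-dnMKL1-GFP, which adds a dominant-negative form of MKL1, a coactivator of serum response factor (SRF). Both groups thus carried AAV9 and GFP. The dose was 5e+08 viral genomes per gram, given on postnatal day 1, and cells were taken on postnatal day 14. The comparison asks which transcripts differ with dnMKL1.

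The deposited file gives 1 comparison made by the authors and holds no value per library. A gene is therefore described by its base mean (normalized counts averaged over all 10 libraries), its log2 fold change with the standard error (SE), and implied group means computed from these. The total counts of the 10 libraries, estimated from genes with a single read, ran from 8802947 to 17228537. Mkl1, whose sequence the vector carries, had a log2 fold change of 9.80 (SE 0.15) in the authors' deposited table, and its sign sets the direction of every value here. By adjusted p-value under 0.05, 4792 of 14056 tested genes differed (34.1%), 2340 of them higher with dnMKL1 (16.6%) and 2452 lower (17.4%). The summed implied means were 13330302 normalized counts with GFP and 10915829 with dnMKL1. Setting both groups to the same total adds 0.29 to every log2 fold change, and 5685 genes were then higher (40.4%) and 927 lower (6.6%). Every fold change below is on the authors' scaling unless the text says that totals were set equal.

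Iron reaches a cell bound to transferrin, which the transferrin receptor draws inside, and a transporter then moves the metal out of the endosome. Iron that is not used at once is stored in ferritin, a shell of heavy and light chains, or leaves through ferroportin, the only known iron exporter. A pair of iron regulatory proteins, the products of Aco1 and Ireb2, bind a short RNA hairpin, the iron-responsive element, when iron is scarce. An element before the coding region blocks translation when bound, and elements after it protect the transcript from decay. The heart takes up much iron for its mitochondria, where heme synthesis both starts and ends.

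Some of the 10 genes carry these hairpins, and the matches found in those genes are shown here. Transcripts of the GENCODE M21 annotation (GRCm38, the assembly also called mm10) were searched for a C, 5 bases, the loop CAGTGN and 5 bases that pair with the first 5. A match lies before the coding region of 28 of 20544 genes (0.136%) and after it in 127 of 20920 genes (0.607%). Matches in Fech were not recorded. Among the others of the 10 genes, Fth1, Ftl1 and Slc40a1 have 1 match each in the 5′ UTR, and Tfrc has 4 in the 3′ UTR. Capitals mark the bulged C and the loop.
Fth1, 5′ UTR, chr19:9982732-9982760, plus strand: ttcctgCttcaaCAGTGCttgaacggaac
Ftl1, 5′ UTR, chr7:45459779-45459807, minus strand: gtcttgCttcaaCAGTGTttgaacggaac
Slc40a1, 5′ UTR, chr1:45925465-45925493, minus strand: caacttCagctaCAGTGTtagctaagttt
Tfrc element 1, 3′ UTR, chr16:32631219-32631247, plus strand: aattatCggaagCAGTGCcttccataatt
Tfrc element 2, 3′ UTR, chr16:32631598-32631626, plus strand: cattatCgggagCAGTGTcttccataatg
Tfrc element 3, 3′ UTR, chr16:32631663-32631691, plus strand: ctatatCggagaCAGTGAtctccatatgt
Tfrc element 4, 3′ UTR, chr16:32631710-32631738, plus strand: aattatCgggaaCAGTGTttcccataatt
The elements of the 2 ferritin genes share 26 of 29 bases, whereas the Slc40a1 element shares 13 of 29 with either. Within Tfrc the pairs share from 18 to 25 of 29 bases. A match describes letters and pairing only, and this strict pattern can miss elements with a mismatch or a further bulge.

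Of the 10 genes, 6 passed an adjusted p-value of 0.05 in the authors' deposited table, 1 higher and 5 lower with dnMKL1. The background is 34.1% of tested genes in either direction and 17.4% lower. Ftl1, the ferritin light chain, was 2.27 times as high, while Alas1, the first enzyme of heme synthesis, fell to 0.421 of the GFP level and the exporter Slc40a1 to 0.502. Fech, Cpox and Slc11a2 had smaller falls. Tfrc, Fth1, Aco1 and Ireb2 did not pass the test. The median log2 fold change of the 10 was -0.20, against 0.021 over all tested genes, and 8 of the 10 values were negative. With totals set equal, 2 were higher (Ftl1 and Fth1), 2 were lower (Alas1 and Slc40a1), and the median was 0.084. Over all tested genes the shares were then 40.4% higher and 6.6% lower, and the median was 0.31.

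Levels differed widely between the genes. Per kilobase of exon, the implied GFP mean was highest for Fth1, at 12072 normalized counts per kb. Tfrc followed at 2513, Alas1 at 2079 and Ftl1 at 1100. A second tier held Fech at 464, Aco1 at 332 and Cpox at 283. The lowest levels per kb were those of Ireb2 at 174, Slc40a1 at 156 and Slc11a2 at 133. With dnMKL1, Ftl1 rose past Tfrc and Alas1 to 2496 per kb, Alas1 stood at 875, and Slc40a1 was last at 78.0. No spread between libraries is at hand for a level, so whether neighbours in this order differ was not tested.

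**Figure D1:**
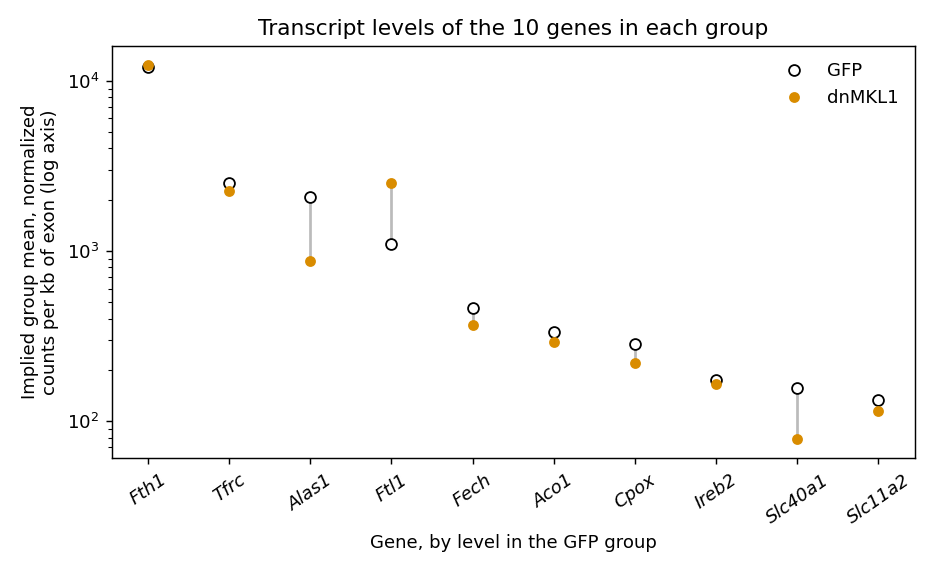
Implied group mean of each gene in normalized counts per kb of exon (log axis), with open points for GFP and filled points for dnMKL1, ordered by the GFP level. Ftl1 moves up from 1100 to 2496, Alas1 down from 2079 to 875 and Slc40a1 down from 156 to 78.0, while the 2 points of Fth1 nearly coincide.

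Of the import genes, Tfrc encodes the transferrin receptor. Its base mean was 12335 in the authors' deposited table, one of 140 tested genes at 10000 or more. The implied means were 13058 normalized counts with GFP and 11612 with dnMKL1. The authors' deposited table gave a log2 fold change of -0.17 (SE 0.23; Benjamini-Hochberg adjusted Wald p = 0.644). Its 95% interval reached from -0.62 to 0.28, or from 0.649 to 1.22 times the GFP level. Only 3 of those 140 genes had a larger SE, and their median SE was 0.11. Tfrc was thus among the least precisely measured genes of its abundance.

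Slc11a2 encodes the transporter DMT1, which carries iron out of the endosome. Implied means were 764 with GFP and 658 with dnMKL1. The authors' deposited table listed it at -0.22 on the log2 scale (SE 0.09; adjusted Wald p = 0.0479). It fell by 14.0%, just inside the threshold. Adjustment over every p-value in the file gave an adjusted Wald p of 0.0592 and ended the call. Setting totals equal turned the value computed from the authors' deposited table to 0.07 (adjusted Wald p = 0.548). The gene makes transcripts with and without an iron-responsive element in the 3′ UTR, and the table counts them as one.

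Other genes of uptake and intracellular transport were taken from a list of 17 that includes both of these. Of its 15 tested genes, 0 were higher and 4 were lower in the authors' deposited table, against 16.6% and 17.4% of all tested genes, and the list median was -0.13. By the deposited adjusted p-value, Exoc6, which acts in the recycling of transferrin receptor vesicles, fell by 0.60 (SE 0.08) on the log2 scale. Slc25a37 and Slc25a28, the mitoferrins that bring iron into mitochondria, fell by 0.62 (SE 0.16) and 0.38 (SE 0.12) on that scale in the authors' deposited table (adjusted Wald p = 6.6e-04 and 0.0043). Exoc6 alone of these 4 stayed lower with totals set equal, and 4 other genes became higher (Steap2, Mcoln1, Pcbp2 and Snx3), against 40.4% of all tested genes.

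The 2 ferritin chains moved apart. Fth1 encodes the heavy chain, whose ferroxidase centre oxidises iron as it enters the shell. It had implied means of 18809 and 19359 normalized counts with GFP and dnMKL1. The authors' deposited table listed Fth1 at 0.04 (SE 0.08; adjusted Wald p = 0.771), with a 95% interval from -0.12 to 0.21. Ftl1, the light chain, helps to form the iron core. Its implied mean went from 1065 to 2416, and the authors' deposited table gave 1.18 (SE 0.15; adjusted Wald p = 9.3e-14). The interval of Ftl1, from 0.89 to 1.47, did not overlap that of Fth1. The ratio of Fth1 to Ftl1 per kb was 11.0 from the implied GFP means and 4.98 from those with dnMKL1. A test of the difference between the chains would need values per library and was not run.

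Among all tested genes, 756 had a higher log2 fold change than Ftl1. Both chains have processed copies elsewhere in the genome. GENCODE M21 names 8 genes as ferritin pseudogenes, which are not analysed here. Some of the 8 are named after Fthl17 and not after either chain. How reads shared with such copies were treated is not stated, so the levels of Fth1 and Ftl1 are uncertain. An unclassified gene on the opposite strand, Gm10252, covers 355 of the 968 exon bases of Ftl1, and whether the counting used strand is not stated. A microRNA gene on the same strand, Gm22133, shares 109 of those bases. Ncoa4, the receptor that delivers ferritin for degradation, had a log2 fold change of 0.10 (SE 0.11; adjusted Wald p = 0.55) in the authors' deposited table. Recomputed from the authors' deposited table under equal totals, Fth1 was also higher, at 0.33 (adjusted Wald p = 4.1e-04), and so was Ncoa4, at 0.39 (adjusted Wald p = 0.0012).

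Slc40a1 encodes ferroportin. Its implied mean was 524 normalized counts with GFP and 263 with dnMKL1. The authors' deposited table gave a log2 fold change of -0.99 (SE 0.18; adjusted Wald p = 2.5e-07), with an interval from -1.34 to -0.65. Of the tested genes, 436 had a lower log2 fold change. Under equal totals the value recomputed from the authors' deposited table was -0.71 (adjusted Wald p = 2.7e-04). Macrophages also express ferroportin strongly. Of 11 macrophage markers, all with a fold change, 1 was higher and 0 lower, against 16.6% and 17.4% of all tested genes. The higher one was Cd68, at 1.03 (SE 0.39) with a base mean of 14.4 in the authors' deposited table. The other 10 markers had negative log2 fold changes, and the median of the 11 markers was -0.21. Their summed implied means were 187 with GFP and 161 with dnMKL1. Csf1r, Lyz2 and C1qb had base means of 32.2, 50.3 and 21.7 in the authors' deposited table, against 394 for Slc40a1. The part of macrophages in the fall of Slc40a1 was not tested. In cells pooled for a library, fewer cells of a type and less RNA per cell cannot be told apart.

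Around the exporter, 8 genes of iron export and systemic iron signals were tested, 4 higher and 2 lower (16.6% and 17.4% over all tested genes). The ferroxidases that work with ferroportin moved the other way from it. Cp, ceruloplasmin, went from an implied mean of 240.0 to 914, and the authors' deposited table gave 1.93 (SE 0.28; adjusted Wald p = 2.2e-10). Heph, hephaestin, had a log2 fold change of 0.72 (SE 0.26; adjusted Wald p = 0.018) in the authors' deposited table. Hfe, a partner of the transferrin receptors, rose by 0.54 (SE 0.13) and Bmp2, a ligand that can raise hepcidin, by 1.46 (SE 0.41), both from the authors' deposited table, with adjusted p-values of 1.5e-04 and 0.0019. Hfe2, hemojuvelin, a bone morphogenetic protein co-receptor made by striated muscle, had a log2 fold change of -0.67 (SE 0.19; adjusted Wald p = 0.0018) in the authors' deposited table and was the most abundant of the list, with a base mean of 2520. Recomputed from the authors' deposited table under equal totals, Hfe2 no longer passed (-0.38, adjusted Wald p = 0.081). Cp, Heph, Hfe and Bmp2 did pass, but the shift raises every value and so cannot test a rise. Hamp, the gene of hepcidin itself, had a base mean of 0.50 and no adjusted p-value.

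Of 10 fibroblast markers, 4 were higher and 0 lower, against 16.6% and 17.4% of all tested genes. Their summed implied means were 4437 with GFP and 6890 with dnMKL1. Of 8 genes listed as mural markers (pericytes and smooth muscle), 2 were higher and 1 lower. Of their fold changes 7 were positive, with a median of 0.24, while their sums were 18208 and 15872. Most of these sums came from Acta2 and Abcc9, with base means of 7726 and 7052 in the authors' deposited table. Cspg4, the next most abundant of the list, had 1260. Which cells the reads of Acta2 and Abcc9 came from was not tested, so the sums need not be those of mural cells. In the authors' deposited table Cspg4 and Myh11 stood at 2.01 (SE 0.18) and 0.73 (SE 0.20), and Acta2, the most abundant of the list, at -1.06 (SE 0.25). Endothelial markers, with 0 of 10 past the threshold against 34.1% of all tested genes, summed to 3905 and 3925. The part of other cell types in the rise of Cp, Heph, Hfe and Bmp2 was not tested.

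The iron sensors did not pass the test. Aco1 encodes iron regulatory protein 1, which doubles as the cytosolic aconitase when it holds an iron-sulfur cluster. Its implied means were 1271 and 1113, and the authors' deposited table gave -0.19 (SE 0.08; adjusted Wald p = 0.0529). This lies just outside the threshold, and centring on the median gene brought the adjusted Wald p to 0.0474. Ireb2 encodes iron regulatory protein 2, which is degraded when iron is plentiful. Implied means were 1004 and 952, and the authors' deposited table gave -0.08 (SE 0.11; adjusted Wald p = 0.672). Both values turned positive with totals set equal, at 0.10 for Aco1 and 0.21 for Ireb2, and neither passed there. Fbxl5, the iron-sensing ubiquitin ligase subunit that directs that degradation, fell by 0.24 (SE 0.09; adjusted Wald p = 0.032) in the authors' deposited table but stood at 0.05 with totals set equal.

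The list of the sensors also held Fbxl5, Hif1a and transcripts known or reported to carry iron-responsive elements, 9 genes in all. Of these, 2 were higher and 3 lower (16.6% and 17.4% over all tested genes). The strict search above matched no element in Epas1, Pfn2, Hif1a or Hao1, though it can miss some. Pfn2, a profilin, fell by 0.72 (SE 0.10) on the log2 scale in the authors' deposited table (adjusted Wald p = 2.2e-11). Epas1, hypoxia-inducible factor 2 alpha, had -0.54 (SE 0.11; adjusted Wald p = 3.8e-06) in the authors' deposited table, while its relative Hif1a had 0.86 (SE 0.13; adjusted Wald p = 1.6e-09). The other rise was Hao1, whose base mean of 1.61 leaves its fold change without a firm size. Across the 4 genes whose matched elements are shown above, the values ranged from the rise of Ftl1 to the fall of Slc40a1, with Fth1 and Tfrc not passing the test. The falls of Epas1 and Pfn2 and the rise of Hif1a stayed called with totals set equal, where the added shift favours a rise.

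**Figure D2:**
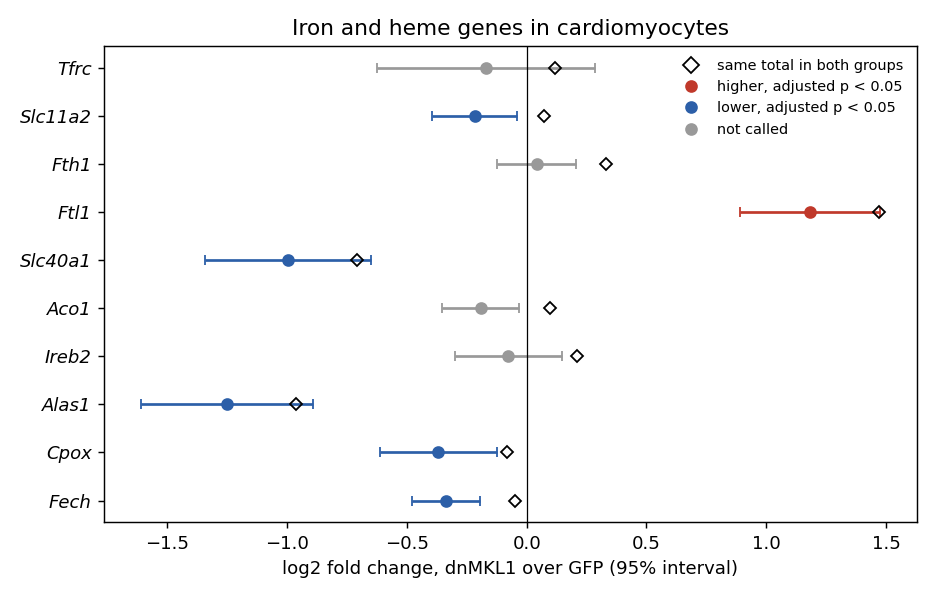
Log2 fold change of each gene, dnMKL1 over GFP, with 95% intervals from the deposited SE, and open diamonds for the value with totals set equal. Ftl1 at 1.18 stands alone on the right, Alas1 at -1.25 and Slc40a1 at -0.99 on the left, and the diamonds of Tfrc, Slc11a2, Aco1 and Ireb2 lie on the other side of 0 from their points.

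Heme synthesis had the largest fall of the 10 genes. Alas1 encodes the housekeeping 5-aminolevulinate synthase, which makes the first and rate-limiting intermediate in mitochondria. Its implied mean went from 8229 normalized counts with GFP to 3463 with dnMKL1. The authors' deposited table gave a log2 fold change of -1.25 (SE 0.18; adjusted Wald p = 2.6e-10), with an interval from -1.61 to -0.89, and 258 of the tested genes had a lower value. Under equal totals the fall recomputed from the authors' deposited table was to 0.514 of the GFP level (log2 -0.96, adjusted Wald p = 1.2e-06). Alas2, the erythroid form, had a base mean of 6.87 in the authors' deposited table and was not called (adjusted Wald p = 0.81). An antisense gene, 4930500F10Rik, shares 465 of the 3959 exon bases of Alas1.

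The last steps are also mitochondrial. Cpox, coproporphyrinogen oxidase, had implied means of 878 and 680 normalized counts. The authors' deposited table gave it a log2 fold change of -0.37 (SE 0.12; adjusted Wald p = 0.012). Fech, ferrochelatase, inserts iron into protoporphyrin to make heme. Implied means were 3339 with GFP and 2646 with dnMKL1, and the authors' deposited table gave -0.34 (SE 0.07; adjusted Wald p = 3.4e-05). Cpox thus fell by 22.5% and Fech fell by 20.8%. Neither passed with totals set equal, where the values recomputed from the authors' deposited table were -0.08 (adjusted Wald p = 0.633) and -0.05 (adjusted Wald p = 0.628).

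Along the route, 6 of the 7 enzymes described here were lower and 0 higher, against 17.4% and 16.6% of all tested genes. Those lower were 3 of 4 mitochondrial and 3 of 3 cytosolic enzymes. In the cytosol, the authors' deposited table gave -0.40 (SE 0.11) for Alad, -0.62 (SE 0.07) for Uros and -0.40 (SE 0.08) for Urod. Ppox, the mitochondrial enzyme between Cpox and Fech, did not pass, at 0.09 (SE 0.12) in the authors' deposited table. With totals set equal, Alas1 and Uros were lower, Ppox was higher, and 4 did not pass. The heme synthesis list, with transporters and regulators, had 15 tested genes, 2 higher and 10 lower, against 16.6% and 17.4% over all tested genes, and a median of -0.40. Its other falls included -0.65 (SE 0.08) for Abcb10, -0.57 (SE 0.13) for Tmem14c, both of the mitochondrial membrane, and -0.52 (SE 0.10) for Clpx, a chaperone that acts on ALAS, all from the authors' deposited table. The rises were 0.64 (SE 0.13) for Pgrmc1, a heme-binding protein, and 0.27 (SE 0.07) for Slc25a39, a mitochondrial carrier, in the authors' deposited table. The list had 3 higher and 3 lower under equal totals, where 40.4% of all tested genes were higher and 6.6% lower.

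Highly expressed genes had lower fold changes in these data, and the part of abundance in the falls of the heme genes was not tested. By the authors' deposited table the median fold change on the log2 scale was 0.0076 over 6515 tested genes with base means from 100 to 1000. It was -0.13 over 1986 genes from 1000 to 10000 and -0.60 over 140 genes at 10000 or more. Cpox lies in the lowest of these classes and Fech and Alas1 in the middle one. Fth1 and Tfrc, in the highest, were thus above the median of theirs. Cardiomyocyte markers fell too, 5 of 7 called lower against 17.4% of all tested genes, with a list median of -0.58. Red cells also make heme. The near-identical globin genes Hba-a1 and Hba-a2 were listed at 0, which can also come from how shared reads were counted. Of 4 tested erythroid markers 0 were called, against 34.1% of all tested genes. The summed implied means of the erythroid list were 60.0 with GFP and 84.9 with dnMKL1, most of it Hbb-bs, and the part of red cells was not tested.

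Of the enzymes of heme breakdown, 3 were higher, against 16.6% of all tested genes, and Hmox2 did not pass. Hmox1, the inducible heme oxygenase that opens the ring and frees its iron, had an implied mean of 29.4 normalized counts with GFP and 221 with dnMKL1. The authors' deposited table gave a log2 fold change of 2.91 (SE 0.34; adjusted Wald p = 5.5e-16), and 95 tested genes had a higher one. Blvra and Blvrb, the biliverdin reductases, rose by 0.43 (SE 0.10) and 0.47 (SE 0.11) in the authors' deposited table. These 3 rises stayed called with totals set equal, but that shift raises every value and so cannot test a rise. Hmox2, the constitutive oxygenase, had -0.23 (SE 0.11; adjusted Wald p = 0.083) in the authors' deposited table. Macrophages also make Hmox1; the sums of their markers are given above, and their part was not tested.

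**Figure D3:**
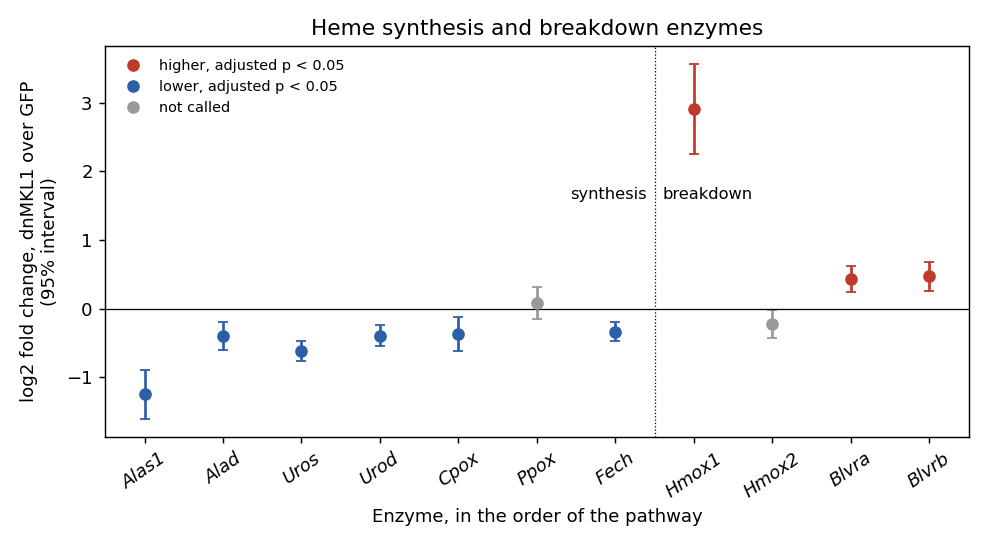
Log2 fold change, dnMKL1 over GFP, with 95% intervals for 7 enzymes of heme synthesis in pathway order and the enzymes of heme breakdown. Alas1 is lowest at -1.25, Ppox sits near 0, and Hmox1 at 2.91 stands far above Blvra and Blvrb at 0.43 and 0.47.

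The list of heme breakdown and transport held 12 tested genes, 4 higher and 4 lower (16.6% and 17.4% over all tested genes). Besides those named, Slc46a1, a folate and heme importer, rose by 0.71 (SE 0.17) in the authors' deposited table. Its largest fall was -1.64 (SE 0.16; adjusted Wald p = 9.7e-22) for Flvcr2, a transporter of the same family as the heme exporter Flvcr1, which had -0.61 (SE 0.21; adjusted Wald p = 0.016), both from the authors' deposited table. Cox10 and Cox15, which turn heme into the heme a of cytochrome oxidase, had -0.89 (SE 0.10) and -0.47 (SE 0.08) in the authors' deposited table. By the recomputation from the authors' deposited table under equal totals, Flvcr1 no longer passed (-0.32, adjusted Wald p = 0.218), while Flvcr2, Cox10 and Cox15 stayed lower.

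Iron-sulfur cluster assembly, the other main use of mitochondrial iron, had 24 tested genes, of which 3 were higher and 13 lower, against 16.6% and 17.4% over all tested genes, with a median of -0.30. By p-value, Hspa9, the mitochondrial chaperone of the pathway, led the falls with a log2 value of -0.88 (SE 0.09) in the authors' deposited table. Isca1, Iba57 and Glrx5, which handle clusters inside mitochondria, had -0.64 (SE 0.09), -0.72 (SE 0.10) and -0.69 (SE 0.10) by the authors' deposited table. Narfl, of the cytosolic branch, stood at -0.61 (SE 0.10), again from the authors' deposited table. The 3 that rose, Nubp1, Nubp2 and Ndor1, belong to the cytosolic branch as well, with Nubp2 at 0.42 (SE 0.08) in the authors' deposited table. Nubp1 and Ndor1 were named after their values were seen. With totals set equal 6 of the list were higher and 6 lower, against 40.4% and 6.6% of all tested genes, and the 5 falls named here stayed.

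**Figure D4:**
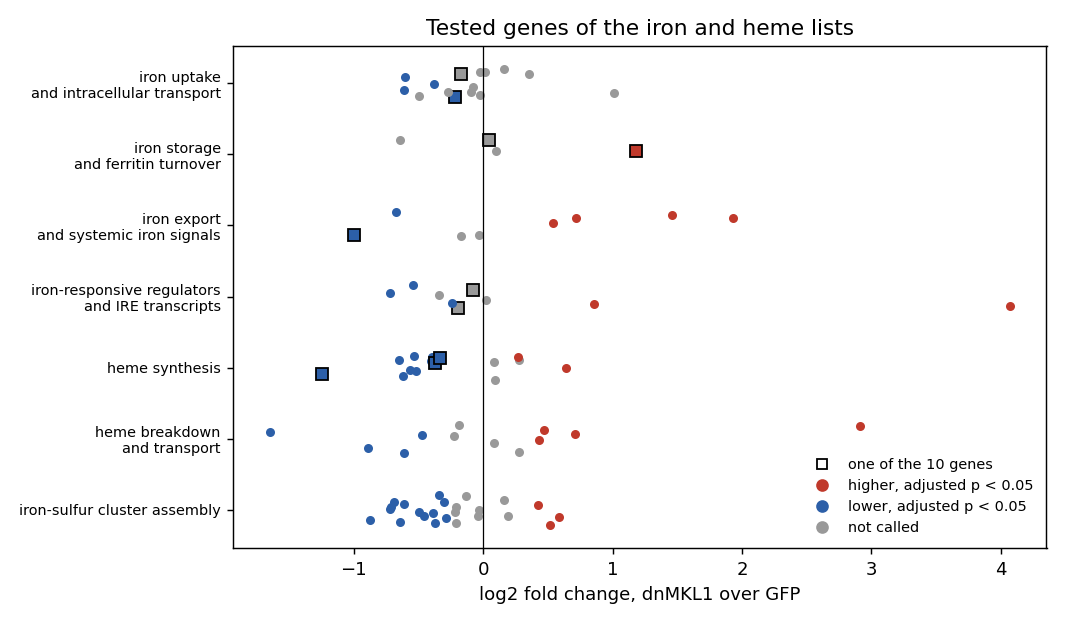
Log2 fold change, dnMKL1 over GFP, of every tested gene in 7 lists of iron and heme genes, with outlined squares for the 10 genes and colour for the deposited call. Heme synthesis and iron-sulfur cluster assembly lie mostly left of 0 (10 of 15 and 13 of 24 called lower, against 17.4% of all tested genes). The storage list has Ftl1 as its only call.

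Since MKL1 acts through SRF, the promoters were searched for the CArG box to which SRF binds. RefSeq promoters (GRCm38.p6, 250 bases before to 50 after a gene's start) were at hand for 7 of the 10 genes. None of the 7 (Tfrc, Fth1, Ftl1, Aco1, Ireb2, Alas1 and Cpox) held a CArG box on either strand, against 1.63% of 32851 promoters. The antioxidant response element TGANNNNGC matched in Aco1 and Cpox, against 41.3% of promoters. The E-box CACGTG and the AP-1 site TGANTCA matched in 0 of 7, against 7.15% and 7.81%. The NRF1 motif (GCGC, any base, then TGCGC) of nuclear respiratory factor 1, which controls many genes of mitochondrial function, matched in Alas1, against 4.6% of promoters. The 30 bases around one of its 2 matches are shown, with the motif in capitals.
Alas1, chr9:106247906-106247935, minus strand: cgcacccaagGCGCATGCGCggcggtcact
A match or its absence describes these letters in this window and says nothing of binding in these cells.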

How the data were processed

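RNA from sorted cardiomyocytes of 5 GFP and 5 dnMKL1 libraries was measured. Per the labels' protocols, 10 ng of total RNA was reverse transcribed and amplified over 8 PCR cycles with a SMART-Seq kit, and 500 pg of cDNA entered Nextera XT. Per the submitters' processing notes, tools were CASAVA 1.8, STAR 2.5.3a and featureCounts of Subread 1.5.2, with mm10. Annotation, strand and the treatment of shared reads are not given in the sources used here. The labels call the replicates biological. The deposited table holds, per the file headers, a Wald test of the groups: base mean (a signal in normalized counts), log2 fold change and SE, the Wald score, and p-value with adjusted p-value. The authors' adjustment covered 14056 genes with base means of 1.31 or more.

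No values per library were at hand, so the planned count test gave way to the deposited adjusted p-value under 0.05, as the plan allowed. A base mean was split into 2 implied group means by the fold change, taking groups of equal size. For other scalings the log2 fold change was shifted, the Wald p-value recomputed with the deposited SE and adjusted by Benjamini-Hochberg over the same genes. Intervals of 95% used the normal distribution. Depth was estimated from genes with 1 read in 1 library and covers counting only. Exon lengths came from GENCODE M21. Of the list genes, 6 were found under an older symbol (Flvcr1 and Flvcr2 among them) and 1 was not analysed here. Scripts (Python 3.11.15, pandas 2.3.3, scipy 1.17.1) were tested on simulated data.

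The genes and lists were chosen with earlier results of these data known. Some genes of the planned lists are not reported here, and counts leave them out. In each list, genes besides the 10 were named if called, up to the 6 with the smallest p-values, with the most abundant gene. Alad, Ppox, Hmox2, Alas2, Ncoa4, Slc25a39, Slc46a1, Flvcr1, Steap2, Mcoln1, Pcbp2, Snx3 and Hamp were named after their values were seen, to complete a route or a count. Genes of the marker lists were named as among the most abundant, as called or as listed at 0.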

Additional observations from a re-analysis of the deposited data

How the results depend on the processing

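No paired analysis was possible because the deposited comparison holds no values per library; for the same reason TMM scaling and leaving out each library were not run, and whether 1 library decides a value is unknown. With totals set equal, Tfrc, Slc11a2, Aco1 and Ireb2 reversed to 0.12, 0.071, 0.096 and 0.21, Fech and Cpox lost their call and Fth1 gained one, by the added shift itself. The storage list then had 3 calls in place of 1 and heme synthesis 6 in place of 12. The share of higher genes among all calls went from 48.8% to 86.0%. Which scaling is nearer to RNA per cell was not tested. Requiring a log2 change of 0.5 or more in size left 2735 of 4792 genes, 3 of the 10 genes in place of 6, 2 of uptake in place of 4, 7 of heme synthesis, 5 of heme breakdown and transport in place of 8, and 8 of iron-sulfur assembly in place of 16, since fewer genes can pass. A base mean of at least 100 left 5 of heme breakdown and transport, with fewer genes tested. A threshold of 0.01 lost Slc11a2 and Cpox and left 3 of 5 calls in the list of iron sensors. Ftl1, Slc40a1 and Alas1 kept direction and call under the 5 alternatives run for single genes, though equal totals can only strengthen a rise such as that of Ftl1.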
